A study of Homo sapiens with 16 samples.

Results

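The transcript that reached the lowest LINC01016 level in transfected HEK293 cells, CU2, was set against the transcript that reached the highest, CU1ENU. LINC01016 is a human long non-coding RNA gene. HEK293 is an established line from human embryonic kidney, in which the submitters describe the gene as silent. The tested cells carried the CU2 transcript in pcDNA3.0, a plasmid with a strong viral promoter, and the cells they were compared with carried the CU1ENU transcript in the same plasmid. Further cells carried T1, T2, CU1 or CU1ENC, the plasmid without insert (empty vector), or no plasmid (parental). Per the labels' protocols, 5 µg of plasmid were given by lipid transfection in 60 mm plates and RNA was collected 48 hours later. The pair was chosen by the LINC01016 level of the 6 transcripts in CPM, the usual scaling of read counts to a common library total, and comprises 4 of 16 bulk RNA-seq libraries, 2 per group, compared within replicate number. The question was whether other genes differ between cells with little and with much LINC01016 RNA.

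CU2 and CU1ENU are different transcripts, so the dose of LINC01016 RNA and the identity of the transcript cannot be told apart in this pair. Nor can fewer transfected cells and less RNA per transfected cell be told apart in bulk RNA. Whether the replicates came from separate cultures is not labelled, and p-values reflect just the spread between libraries.

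Long non-coding RNAs can act in the nucleus, where they bind chromatin or proteins near their site of transcription, or in the cytoplasm, where they can bind proteins, messenger RNAs or microRNAs. RNA made from a plasmid is separated from its natural site, so an effect on neighbouring genes would have to act at a distance. Introduced DNA and double-stranded RNA are themselves detected by sensors such as cGAS, RIG-I and MDA5, which signal through STING or MAVS to the transcription factors IRF3 and NF-kB. These switch on interferon, and secreted interferon acts through its receptor on interferon-stimulated genes.

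The library totals of the pair were 15537828 to 16258057 counts, within a range of 15040770 to 17255935 counts over the 16 libraries. The neurofilament, vimentin, keratin and embryonic genes that mark HEK293 cells were detected in all 10 cases, with summed levels of 2983 and 3495 CPM in CU2 libraries and 3125 and 3313 CPM in CU1ENU libraries. Of 14 leukocyte and erythroid markers, 4 had no count in the 4 libraries. Their summed level was 5.35 and 5.41 CPM in CU2 and 4.94 and 5.35 CPM in CU1ENU. Kidney tubule markers were likewise low, at 13.6 and 9.78 CPM in CU2 and 14.6 and 10.1 CPM in CU1ENU. Fibroblast markers summed to 113 and 105 CPM in CU2 and 104 and 97.2 CPM in CU1ENU, and keratinocyte and uterine epithelium markers to 708 and 809 CPM in CU2 and 739 and 767 CPM in CU1ENU. Both CU2 libraries lay above both CU1ENU libraries in the sum of fibroblast markers. For leukocyte and erythroid markers CU2 replicate 1 (5.351 CPM) and CU1ENU replicate 2 (5.348 CPM) were all but level. The part of these markers in the results was not tested.

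LINC01016 (ENSG00000249346) lies on the minus strand of chromosome 6 in GRCh38, between bases 33867506 and 33896914, and its 27 annotated exon records cover 5055 bases. The gene ENSG00000233183 on the plus strand, at 33891327 to 33927631, overlaps 862 of those bases (17.1%). To show what is counted at the locus, a pair of stretches is printed that lie in 9 LINC01016 exon records each, the most that any base has. The first lies in no exon of the opposite gene, and the second lies wholly inside such an exon, so that strand alone assigns its reads. They are read from an annotated transcript of GENCODE 29 with 3 exons and 3151 bases, 5′ to 3′ on the minus strand, and no base is singled out in capitals. The sequences of the 6 cloned inserts were not used here, so which of these bases each insert holds is not stated.
LINC01016 exonic, chr6:33891797-33892084: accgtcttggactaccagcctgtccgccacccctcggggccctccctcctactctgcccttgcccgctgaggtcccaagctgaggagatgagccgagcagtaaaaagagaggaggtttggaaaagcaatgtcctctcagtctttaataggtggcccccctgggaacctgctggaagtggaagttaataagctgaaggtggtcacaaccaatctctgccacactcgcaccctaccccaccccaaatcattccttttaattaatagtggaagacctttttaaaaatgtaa
LINC01016 exonic and opposite gene exonic, chr6:33892317-33892451: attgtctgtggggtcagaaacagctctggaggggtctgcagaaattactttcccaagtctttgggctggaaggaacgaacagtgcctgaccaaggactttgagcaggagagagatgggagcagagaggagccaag

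LINC01016 had 50050 and 40405 counts in CU2 libraries 1 and 2, against 192244 and 132205 counts in CU1ENU libraries 1 and 2. On the scale of the deposited total this is 3078 and 2600 CPM in CU2 and 12326 and 8417 CPM in CU1ENU. The CU2 libraries lay below the CU1ENU libraries without overlap, as the choice of the pair required. The group means were 2839 ± 338 CPM in CU2 and 10372 ± 2764 CPM in CU1ENU (SD, n = 2 each). The CU2 level was 0.250 of the CU1ENU level in replicate 1 and 0.309 in replicate 2. As a share of all counts, LINC01016 took 0.308% (95% exact interval 0.305 to 0.311%) and 0.260% (0.258 to 0.263%) in CU2 and 1.23% (1.23 to 1.24%) and 0.842% (0.837 to 0.846%) in CU1ENU, where the intervals cover counting error only. These values chose the pair, so they carry no test.

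The group next above CU2 was T2, with a mean of 4969 ± 305 CPM, and the group next below CU1ENU was CU1, with 8488 ± 3323 CPM (SD, n = 2 each). The lower end of the order was clear, since both CU2 libraries lay below every other transcript library. The upper end was not, because CU1 replicate 1 had 10838 CPM, above the 8417 CPM of CU1ENU replicate 2. CU1ENU was nevertheless the highest of the 6 within each replicate number. LINC01016 had 1 and 0 counts in the empty vector libraries and 0 counts in both parental libraries. A count of reads favours long inserts, so the ratio of CPM is not a ratio of molecules.

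**Figure D1:**
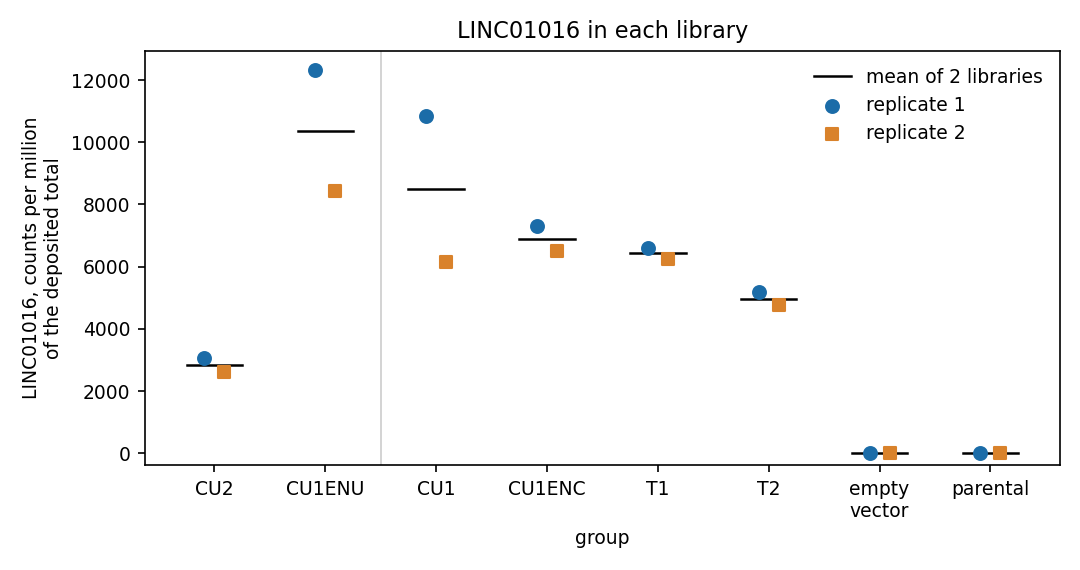
LINC01016 in CPM of the deposited total (linear axis) in each of 16 libraries, by group, with circles for replicate 1, squares for replicate 2 and bars for the mean of 2 libraries. CU2 sits at 3078 and 2600 CPM, below all other transcripts, and CU1ENU at 12326 and 8417 CPM, with CU1 replicate 1 between its libraries.

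The opposite-strand gene ENSG00000233183 was likewise lowest in CU2 and highest in CU1ENU by group mean, while CU1, second highest for LINC01016, was second lowest here at 272 ± 123 CPM (SD, n = 2). It had 1460 and 1468 counts in CU2 and 12265 and 5309 counts in CU1ENU. Its level was 92.1 ± 3.31 CPM in CU2 and 562 ± 317 CPM in CU1ENU (SD, n = 2 each), again with no overlap. Set against the LINC01016 count of the same library it came to 2.92 and 3.63% in CU2 and 6.38 and 4.02% in CU1ENU. The libraries keep strand through dUTP marking, which is rarely complete. What share of these counts came from the plasmid's LINC01016 RNA was not tested, and the gene is left out of the counts of genes below.

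Outside the locus, no gene passed the test between CU2 and CU1ENU in the fit of all 16 libraries. Of 19314 genes tested with edgeR's quasi-likelihood test with replicate number as a block, 0 had a Benjamini-Hochberg adjusted p under 0.05 (0%), and the lowest adjusted p was 0.999. At an unadjusted p under 0.05 there were 569 genes, 329 higher in CU2 (1.7%) and 240 lower (1.24%), where a uniform spread of p would give 966. Low p-values were thus fewer than a uniform spread gives, so the lack of calls does not show a lack of differences. DESeq2 with the same block also passed 0 genes. Both CU2 libraries lay above both CU1ENU libraries in 2044 genes (10.6%) and below both in 2083 genes (10.8%).

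The 2 within-replicate differences did not order the genes alike. Across the 19314 genes, Pearson's r between the CU2 minus CU1ENU difference of replicate 1 and that of replicate 2 was −0.047, and across the 10814 genes of at least 10 CPM it was 0.066. Genes are not independent replicates, and these values describe 4 libraries. In the genes of at least 10 CPM, 44.1% had the same sign in both replicates. The median log2 fold change over all tested genes was 0.00, and 9655 of 19314 genes were positive.

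The precision bounds what the pair could show. The median standard error (SE) of a log2 fold change was 0.140 over all tested genes and 0.0839 over genes of at least 10 CPM. In genes of at least 10 CPM the 95% interval of CU2 over CU1ENU lay within a 2-fold change either way for 99.2%, and within 1.5-fold for 97.4%. Of all tested genes, 74.7% had an interval within 2-fold. Fitted differences beyond 1.5-fold were seen in 49 genes of at least 10 CPM, the largest in OAS2, an enzyme that makes the activator of RNase L, with a log2 fold change of 2.03 ± 1.08 (SE).

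The calls depended on which libraries gave the spread. Fitted with only the 4 libraries of the pair, which leaves 1 residual degree of freedom, edgeR passed 56 of 17844 genes (0.314%), all 56 higher in CU2. Without the filter on low counts the 16-library fit passed 5 of 38199 genes (0.0131%), again all higher in CU2. Of the 56 genes, 15 were among the 42 tested interferon-stimulated genes of the list, 5 among 18 sensors and adaptors, and 1 among 9 interferon and chemokine genes, with IFIH1 counted in both of the first lists. None belonged to the other 28 lists. The lists are not complete, since STAT2, a transcription factor of the interferon signal, was among the 56 and stands in no list. The same holds for PLSCR1, NMI, PARP10, TRIM21, TRIM25, SAMHD1, PML, TAP1, HLA-B and HLA-E, named after their values were seen. The counts by list are thus a lower bound on the calls linked to interferon. The calls in no list were not sorted by function. In the 16-library fit 7 of the 56 had an unadjusted p under 0.05.

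**Figure D2:**
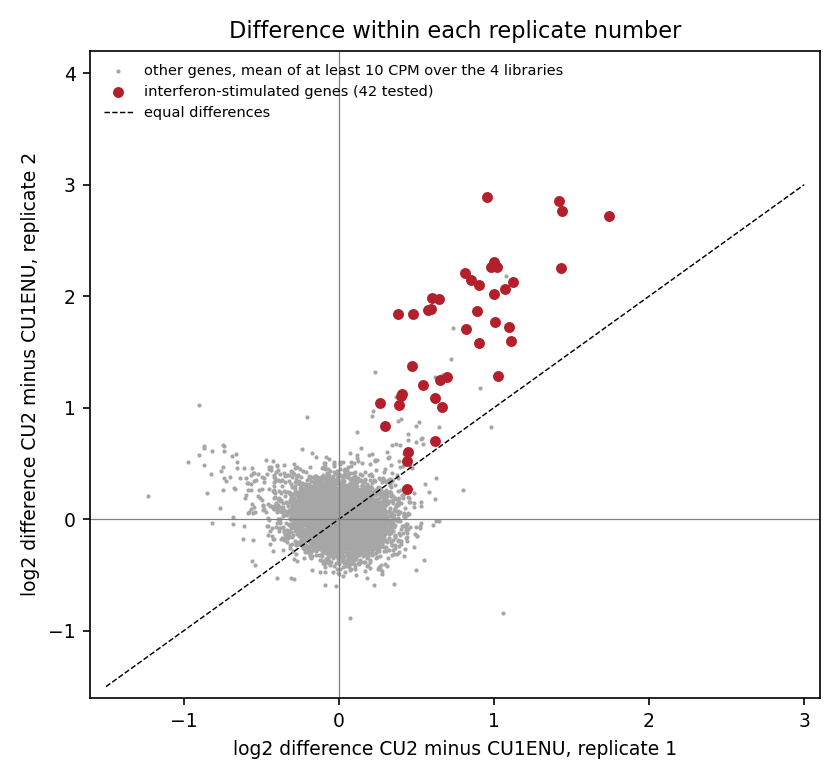
Log2 difference CU2 minus CU1ENU in replicate 1 (x axis) and replicate 2 (y axis), 1 point per gene. Grey points are 10768 other genes with a mean of at least 10 CPM in the 4 libraries, red points the 42 tested interferon-stimulated genes, and the dashed line marks equal differences. Most grey points scatter about 0, and all 42 red points are positive in both replicates, 41 of them further from 0 in replicate 2.

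Interferon-stimulated genes all lay on the same side. All 42 tested members, of 43 in the table, had a positive difference in the fit and in both replicates, against 9655 of 19314 genes overall. Their log2 fold changes ran from 0.37 to 2.09 with a median of 1.23, against 0.00 over all tested genes. The median was 0.75 within replicate 1 and 1.80 within replicate 2. No member passed the test over all genes, 2 had an unadjusted p under 0.05, and the lowest adjusted p was 0.999. The earlier results of these data were known when the list was drawn up, so this count is a description.

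The level of these genes also differed between replicate numbers. Their summed level was 6354 and 2809 CPM in CU2 libraries 1 and 2, against 3863 and 909 CPM in CU1ENU libraries 1 and 2. CU2 was thus higher by 1.64-fold in replicate 1 and 3.09-fold in replicate 2, while CU1ENU replicate 1 lay above CU2 replicate 2. In 40 of 42 members CU1ENU replicate 1 exceeded CU2 replicate 2, so that in 2 members the groups did not overlap. Over all tested genes, 10.6% had both CU2 libraries above both CU1ENU libraries.

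Among the 6 transcripts, CU2 ranked highest in both replicates, but not by much. In replicate 1 T1 had 6336 CPM against 6354 CPM in CU2, and in replicate 2 T2 had 2546 CPM against 2809 CPM. A high level was thus not particular to CU2 within a replicate. CU1ENU ranked lowest in replicate 1, but in replicate 2 it was at rank 3, above T1 (636 CPM), CU1 (739 CPM) and CU1ENC (799 CPM), which all had less LINC01016.

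The ratio of replicate 1 to replicate 2 was itself uneven between groups. It was 2.26 in CU2 and 4.25 in CU1ENU, and over the other transfected groups it ran from 1.69 in T2 to 9.97 in T1, with 2.18 in empty vector. Parental cells had a ratio of 0.910. A single block term takes out an equal shift of replicate 2 only. The median SE of these 42 genes was 0.736 in the 16-library fit, against 0.140 over all genes, and 0.274 in the fit of the pair alone.

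**Figure D3:**
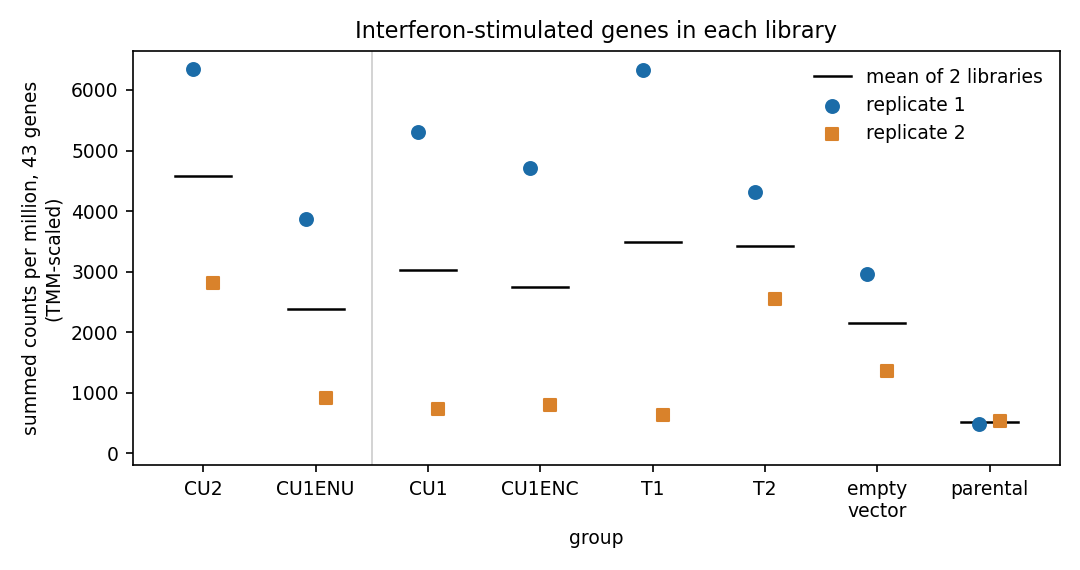
Summed CPM of the deposited total of the 43 interferon-stimulated genes (linear axis) in each of 16 libraries, by group, with circles for replicate 1, squares for replicate 2 and bars for the mean of 2 libraries. The axis label names TMM scaling, but the sums are by deposited total. CU2 has the highest value of the 6 transcripts in replicate 1 (6354 CPM) and in replicate 2 (2809 CPM). T1 is close to it in replicate 1 (6336 CPM) and T2 is next in replicate 2 (2546 CPM). CU1ENU has 3863 CPM in replicate 1, rank 6 of the 6 transcripts, and 909 CPM in replicate 2, rank 3.

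Each transcript was also set against the plasmid without insert. The summed level in empty vector was 2953 and 1354 CPM, so CU2 had 2.15 and 2.08 times the empty vector level in replicates 1 and 2, and CU1ENU had 1.31 and 0.671 times. Parental libraries had 490 and 539 CPM. Over the 42 tested genes the median log2 fold change was 1.19 for CU2 over empty vector and 0.02 for CU1ENU over empty vector. Both comparisons share the empty vector libraries. Outside the locus, edgeR's quasi-likelihood test called 0 of 19314 genes for CU2 over empty vector (0%) and 0 for CU1ENU over empty vector (0%), with 583 and 685 genes at an unadjusted p under 0.05.

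Single members show the overlap. IFI6, an interferon-induced protein of mitochondria and the endoplasmic reticulum, had 740 and 347 CPM in CU2 and 489 and 93.8 CPM in CU1ENU. IFIT1, which binds foreign RNA by its 5′ end, had 621 and 229 CPM in CU2 and 311 and 56.5 CPM in CU1ENU. OAS3, a sister enzyme of OAS2, had 441 and 213 CPM in CU2 and 291 and 53.8 CPM in CU1ENU. In each of the 3 genes the libraries of replicate 1 were high and those of replicate 2 low in both groups, and the CU2 library was the higher of each replicate.

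The log2 fold changes were 1.27 ± 0.93 for IFI6, 1.53 ± 1.00 for IFIT1 and 1.29 ± 0.91 for OAS3 (SE, adjusted p = 0.999 each, edgeR). OAS2 itself had 104 and 36.7 CPM in CU2 and 38.3 and 5.35 CPM in CU1ENU. MX1, a GTPase that blocks viruses, had 81.3 and 47.7 CPM in CU2 and 46.3 and 10.3 CPM in CU1ENU, and here both CU2 libraries did lie above both CU1ENU libraries. IFITM2, a membrane protein that hinders viral entry, was the member with the smallest fitted difference, with 33.2 and 20.9 CPM in CU2 and 24.4 and 17.3 CPM in CU1ENU.

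ISG20 (ENSG00000172183, chromosome 15, 88636153 to 88656483, plus strand), an exonuclease of single-stranded RNA, had the lowest p of the list. It had 15.1 and 6.40 CPM in CU2 and 9.79 and 3.92 CPM in CU1ENU. Its log2 fold change was 0.66 ± 0.20 (SE; unadjusted p = 0.00269, adjusted p = 0.999, edgeR), with 0.62 within replicate 1 and 0.70 within replicate 2. The groups overlapped, yet the 2 within-replicate differences were close to each other.

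PARP14 and UBE2L6 are members that passed in the fit of the pair alone, picked after their values were seen. PARP14, an ADP-ribosyltransferase, had 172 and 82.0 CPM in CU2 and 109 and 40.8 CPM in CU1ENU. Its log2 fold change there was 0.82 ± 0.08 (SE, adjusted p = 4.14e-11, edgeR on 4 libraries), against 0.82 ± 0.52 (adjusted p = 0.999) in the 16-library fit. UBE2L6, the enzyme that conjugates ISG15, had 38 and 10.9 CPM in CU2 and 17.7 and 3.26 CPM in CU1ENU, with 1.30 ± 0.15 (adjusted p = 1.34e-09) in the 4 libraries and 1.33 ± 0.71 (adjusted p = 0.999) in the 16. The size of the difference was nearly the same in both fits and the SE was not. STAT2, the transcription factor that carries the interferon signal, and TAP1, a peptide transporter for antigen presentation, also passed in the 4 libraries, with log2 fold changes of 0.72 and 0.62, and were likewise picked after their values were seen.

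Promoters of interferon-stimulated genes typically carry a response element that interferon-activated transcription factors bind. The letters GAAANNGAAA were searched on both strands in the 250 bases before and 50 bases after each start in the RefSeq promoter table, where N is any base and matches may overlap. Of the 42 tested members 34 were in the table, and 23 of them (67.6%) held a match. The share was 3.57% of all 35116 promoters and 2.77% of the 12920 tested genes in the table. A match is a run of letters, not a measured site. The list was drawn up from known interferon-stimulated genes, so its high share follows from that choice and is no result about the pair. The 3 printed promoters belong to the members with the highest level in CU2 and hold 3, 2 and 2 matches, shown in capitals (RefSeq, GRCh38.p14, 5′ to 3′ on the gene's strand).
IFI6, chr1:27672143-27672442, minus strand: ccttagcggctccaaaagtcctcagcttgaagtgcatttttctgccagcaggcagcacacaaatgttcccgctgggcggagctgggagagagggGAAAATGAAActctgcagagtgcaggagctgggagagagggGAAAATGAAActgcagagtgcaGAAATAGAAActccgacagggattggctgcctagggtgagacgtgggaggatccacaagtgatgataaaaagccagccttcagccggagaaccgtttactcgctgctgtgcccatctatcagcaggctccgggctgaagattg
IFIT1, chr10:89392373-89392672, plus strand: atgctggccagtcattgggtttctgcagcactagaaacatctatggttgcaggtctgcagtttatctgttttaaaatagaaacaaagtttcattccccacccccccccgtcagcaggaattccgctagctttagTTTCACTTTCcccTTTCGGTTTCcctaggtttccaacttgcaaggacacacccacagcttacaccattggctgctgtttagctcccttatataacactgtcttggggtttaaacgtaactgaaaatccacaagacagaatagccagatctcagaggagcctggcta
OAS3, chr12:112938224-112938523, plus strand: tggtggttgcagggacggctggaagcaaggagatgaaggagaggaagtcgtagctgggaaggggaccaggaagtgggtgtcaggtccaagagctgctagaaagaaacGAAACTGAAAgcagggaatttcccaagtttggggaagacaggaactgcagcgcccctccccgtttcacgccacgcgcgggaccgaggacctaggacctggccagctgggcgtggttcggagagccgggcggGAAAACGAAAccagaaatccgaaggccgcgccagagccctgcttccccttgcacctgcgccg

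Upstream of these genes stand the interferons, which were near the limit of detection. Of 11 ligand and chemokine genes 10 were tested, all 10 had a positive fitted difference, and 0 passed. The median log2 fold change was 1.35, with 0.78 in replicate 1 and 1.76 in replicate 2. IFNB1, the gene of interferon beta, had 22 and 9 counts in CU2 and 12 and 2 counts in CU1ENU, so the groups overlapped. IFNL1, a type III interferon, had 15 and 11 counts in CU2 and 7 and 0 counts in CU1ENU. CXCL10, a chemokine induced by interferon, had 25 and 15 counts in CU2 and 8 and 0 counts in CU1ENU.

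IFNL1 and CXCL10 did not overlap between the groups, and 5 of the 10 tested genes showed this in the direction of CU2, where 10.6% of all tested genes did. Of this list 10 genes reached the test in the 12 transcript libraries and 8 in the 8 libraries outside the pair. Some members thus entered the test through the pair itself, so the counts of positive and of non-overlapping members depend in part on the filter. Their read counts are small, and a filter of a mean of 1 CPM leaves the list with a median of 0.22. CCL5, a chemokine that attracts T cells, had 6.80 and 3.75 CPM in CU2 and 2.65 and 1.04 CPM in CU1ENU, with no overlap. Its log2 fold change was 1.55 ± 0.78 (SE, adjusted p = 0.999, edgeR) in the 16 libraries, and its adjusted p was 0.00275 in the 4 libraries. CXCL8 and CCL2, chemokines that NF-kB controls, differed by less, with log2 fold changes of 0.25 ± 0.23 and 0.18 ± 0.33 (SE).

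Sensors and adaptors of foreign nucleic acid gave a smaller difference. Of 18 tested, 14 were positive, 2 had an unadjusted p under 0.05 and 0 passed, with a median log2 fold change of 0.26 (0.19 in replicate 1 and 0.36 in replicate 2). STING1 (chromosome 5, 139475533 to 139482935, minus strand), the adaptor of the cGAS pathway, had 15.3 and 13.3 CPM in CU2 and 11.7 and 9.20 CPM in CU1ENU. Its groups did not overlap, but it is also among the genes named below by a rule that asked for this, so the separation is no result. Its log2 fold change was 0.45 ± 0.14 (SE; unadjusted p = 0.00209, adjusted p = 0.999, edgeR). The difference between CU2 and CU1ENU was close in both replicates, at 0.39 and 0.52. CU1 had 15.5 and 13.6 CPM and T2 15.2 and 13.5 CPM, near CU2. T1 (13.9 and 11.7 CPM) and CU1ENC (12.4 and 10.5 CPM) lay between CU2 and CU1ENU in each replicate.

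TLR3, the endosomal receptor of double-stranded RNA, had 6.86 and 4.53 CPM in CU2 and 3.60 and 1.57 CPM in CU1ENU. The CU2 libraries were again both above the CU1ENU libraries, with a log2 fold change of 1.19 ± 0.40 (SE; unadjusted p = 0.00828, adjusted p = 0.999, edgeR). RIGI, the cytoplasmic sensor of RNA ends, had 264 and 122 CPM in CU2 and 158 and 37.2 CPM in CU1ENU, and its groups overlapped. The sensors RIGI and IFIH1 and the factor IRF7 are themselves induced by interferon, and IFIH1 stands in both lists. Other members were not sorted by whether interferon induces them, so this list is not independent of the interferon-stimulated genes. The DNA sensor CGAS, the adaptor MAVS, the kinase TBK1 and the factor IRF3 had log2 fold changes of 0.00 ± 0.33, −0.06 ± 0.06, −0.06 ± 0.08 and 0.08 ± 0.07 (SE).

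The remaining 28 lists had no member that passed, and those with at least 5 tested members had medians between −0.04 and 0.18, near that of all genes. NF-kB and inflammatory genes had 15 of 19 positive and a median log2 fold change of 0.09. Their lead gene NFKB2, the precursor of the p52 subunit, had 47.5 and 46.5 CPM in CU2 and 44.1 and 36.4 CPM in CU1ENU, with a log2 fold change of 0.23 ± 0.09 (SE, adjusted p = 0.999, edgeR). Mitochondrially encoded genes were positive in 13 of 13 members with a median of 0.14. Their summed level was 16482 and 12554 CPM in CU2 and 14345 and 11876 CPM in CU1ENU, so the library of replicate 1 was high in both groups and the groups overlapped.

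Estrogen-response genes are of interest because LINC01016 has been studied in hormone-dependent tissue. They had 16 of 18 positive with a median of 0.06, and their lead gene NRIP1, a nuclear receptor corepressor, had 51.7 and 47.3 CPM in CU2 and 45.6 and 43.5 CPM in CU1ENU. G2/M and mitosis genes had 9 of 30 positive with a median of −0.04, and G1/S genes 16 of 30 with a median of 0.00. Ribosomal proteins had 43 of 78 positive and a median of 0.01, with 0.11 in replicate 1 and −0.09 in replicate 2. Unfolded protein response and heat shock genes likewise were positive in replicate 1 (medians 0.06 and 0.04) and negative in replicate 2 (−0.09 in both).

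The neighbours of LINC01016 on chromosome 6 were measured for a change close to the natural locus. Of 13 such genes 11 were tested, 7 were positive and 0 passed, with a median log2 fold change of 0.03. Among the well expressed ones, ITPR3 (a calcium channel of the endoplasmic reticulum), LEMD2 (an inner nuclear membrane protein) and BAK1 (a pore protein of apoptosis), had log2 fold changes of 0.08 ± 0.07, 0.07 ± 0.07 and −0.01 ± 0.06 (SE). Germ cell genes were nearly silent, with 3 of 15 reaching the test and summed levels of 1.85 and 1.09 CPM in CU2 and 1.47 and 2.04 CPM in CU1ENU.

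**Figure D4:**
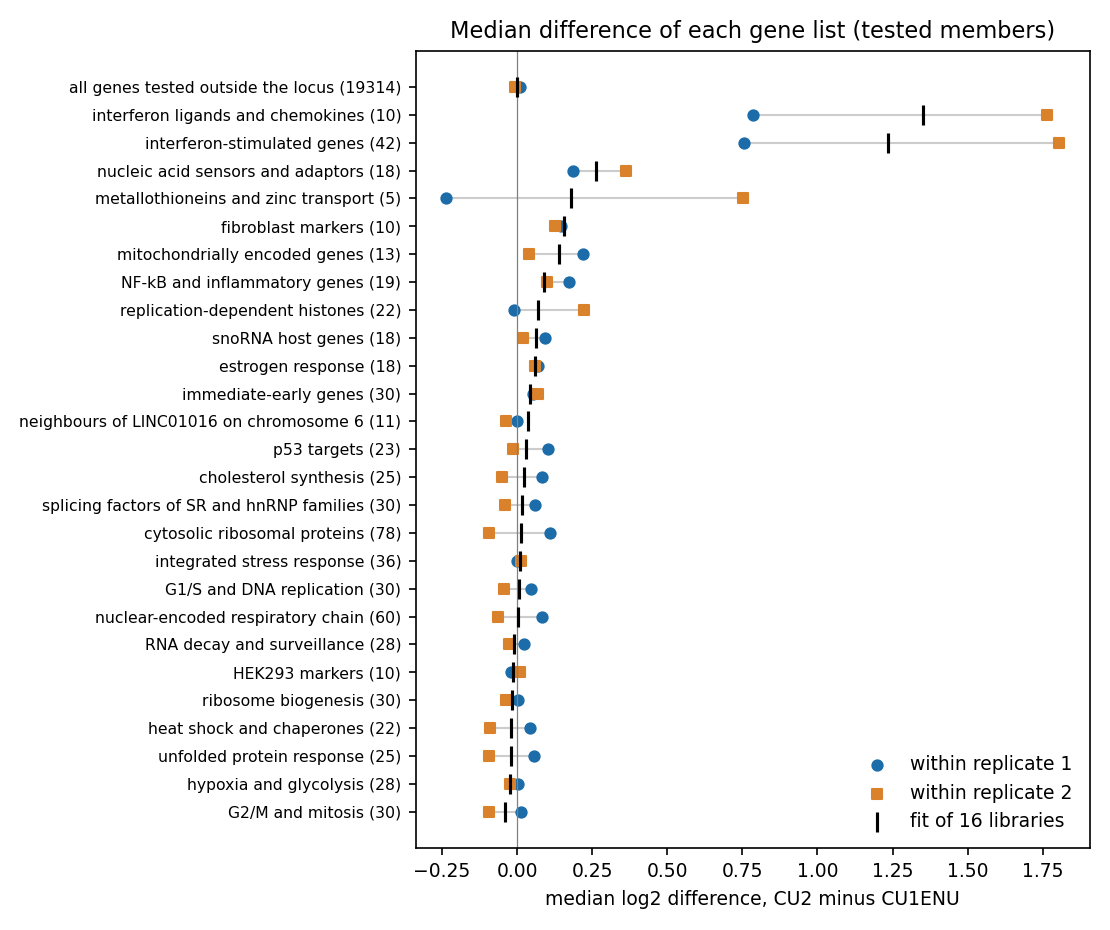
Median log2 difference CU2 minus CU1ENU of the tested members of each list with at least 5 of them (number in brackets), with circles for replicate 1, squares for replicate 2 and ticks for the fit of 16 libraries. Interferon-stimulated genes (0.75 and 1.80) and interferon and chemokine genes (0.78 and 1.76) stand far to the right. Some interferon and chemokine genes with few reads entered the test through the pair itself, so the place of that list depends in part on the filter. Sensors and adaptors follow at 0.19 and 0.36, and metallothioneins and zinc transport have opposite signs in the 2 replicates.

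The genes of lowest unadjusted p by the naming rule were mostly small differences with a small SE. NT5C3A (ENSG00000122643, chromosome 7, 33014114 to 33062797, minus strand), a nucleotidase of pyrimidines, had 54.7 and 51.4 CPM in CU2 and 42.0 and 43.2 CPM in CU1ENU. The groups did not overlap, and the other transcripts lay between 40.8 and 51.3 CPM. Its log2 fold change was 0.32 ± 0.08 (SE; unadjusted p = 0.000547, the lowest of all genes, adjusted p = 0.999, edgeR). SOCS1, which shuts off cytokine receptor signalling and is itself induced by it, had 3.0 and 3.23 CPM in CU2 and 2.15 and 0.914 CPM in CU1ENU, with a log2 fold change of 1.06 ± 0.33 (SE).

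FHL3, a LIM-domain protein of the cytoskeleton and nucleus, had 27.4 and 27.6 CPM in CU2 and 21.7 and 19.6 CPM in CU1ENU. PCSK7, a protease that cuts proproteins, had 71.0 and 81.5 CPM in CU2 and 65.4 and 64.7 CPM in CU1ENU. NAPA, which recycles SNARE complexes, and COG1, of the Golgi tethering complex, had log2 fold changes of 0.27 ± 0.09 and 0.28 ± 0.09 (SE). STING1, described above, was also named by this rule. The other genes higher in CU2 by the same rule were ZNF385A, ZNF695, MKS1 (a ciliary protein), JMJD7-PLA2G4B and RN7SL3, with log2 fold changes between 0.27 and 1.08. RN7SL3 has near-identical copies and JMJD7-PLA2G4B is a read-through of 2 genes, so their counts are uncertain.

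On the other side stood PSD3 (ENSG00000156011, minus strand of chromosome 8), which activates the small GTPase ARF6. It had 41.8 and 40.0 CPM in CU2 and 50.6 and 49.7 CPM in CU1ENU, with a log2 fold change of −0.29 ± 0.08 (SE; unadjusted p = 0.000908, adjusted p = 0.999, edgeR). Empty vector libraries had 51.4 and 49.8 CPM, near CU1ENU. KIF20A, a kinesin of cell division, had 80.1 and 88.0 CPM in CU2 and 92.7 and 104.6 CPM in CU1ENU, with a log2 fold change of −0.23 ± 0.07 (SE).

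DIP2C had 30.6 and 28.8 CPM in CU2 and 37.3 and 36.7 CPM in CU1ENU. MRPL23, a protein of the mitochondrial ribosome, had 35.6 and 34.3 CPM in CU2 and 43.9 and 40.1 CPM in CU1ENU. NCKAP1, of the complex that drives actin branching, had 263 and 283 CPM in CU2 and 293 and 312 CPM in CU1ENU, which is a log2 fold change of −0.15 ± 0.05 (SE). The others lower in CU2 were ABTB3, PRKG1 (the kinase that cyclic GMP activates), MINAR1, CEP19 (a centrosome protein), SOGA1, the pseudogene PAIP1P2 and the antisense RNA CARS1-AS1, with log2 fold changes between −0.85 and −0.19. None of the 24 genes named by this rule passed over all genes, and the rule asked that the groups did not overlap, so their separation is no result.

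**Figure D5:**
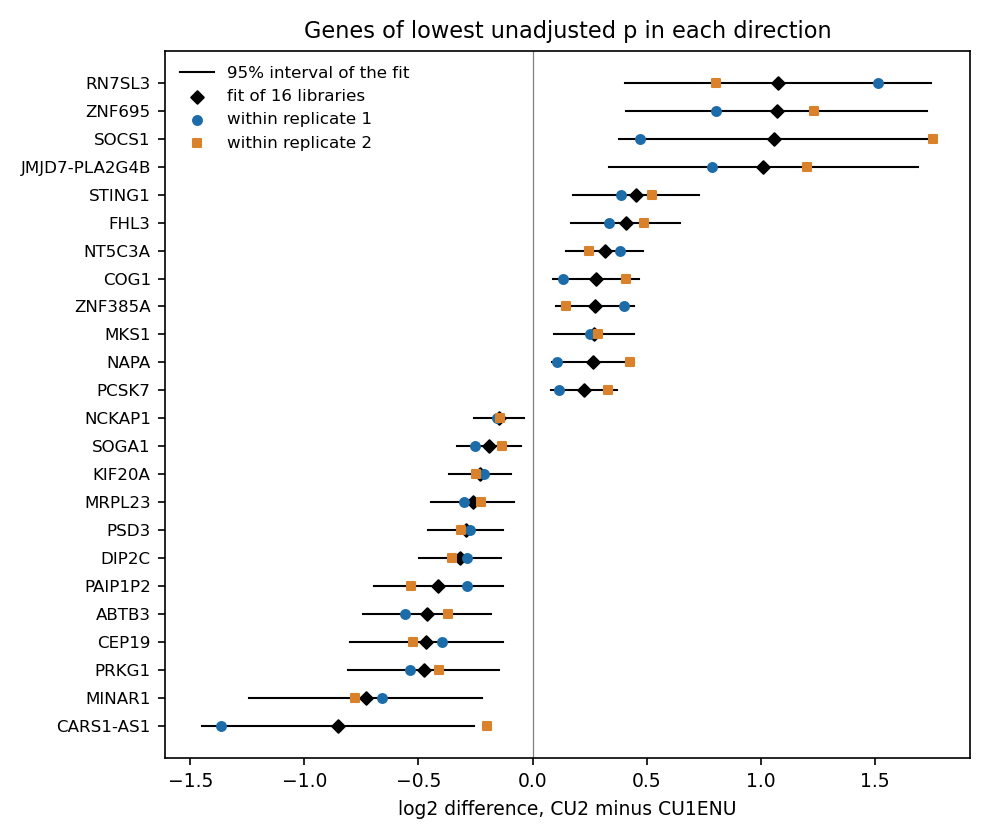
Log2 difference CU2 minus CU1ENU of the 12 genes of lowest unadjusted p in each direction, with diamonds and lines for the 16-library fit and its 95% interval, circles for replicate 1 and squares for replicate 2. Differences lie between −0.85 and 1.08 in the fit. Every gene has the same sign in both replicates, which follows from the rule that the groups do not overlap.

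A dose relation was also fitted over all transcripts. The model held no term for the transcript, so libraries of the same transcript counted as separate dose points. Dose and transcript identity are not separated by these slopes either. With log2 LINC01016 CPM as a numeric term in the 12 transcript libraries, from 2600 to 12326 CPM, edgeR's quasi-likelihood test called 0 of 18946 genes (0%), with 681 genes at an unadjusted p under 0.05, where a uniform spread would give 947, and a lowest adjusted p of 0.628. These libraries include the pair. In the 8 libraries of the other 4 transcripts, from 4754 to 10838 CPM, it called 0 of 18602 genes (0%), with 852 at an unadjusted p under 0.05 and a lowest adjusted p of 0.963.

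Interferon-stimulated genes had mostly negative slopes. In the 12 libraries all 42 slopes were below 0, with a median of −0.60 log2 units for each doubling of LINC01016 and 18 genes at an unadjusted p under 0.05. In the 8 libraries outside the pair, 37 of 42 were below 0 with a median of −0.46, and none had an unadjusted p under 0.05. In replicate 2 of these libraries the summed level was 2546 CPM in T2, which had the least LINC01016. It was 636, 739 and 799 CPM in T1, CU1 and CU1ENC. In replicate 1 T2 had the lowest sum, 4307 CPM, against 5314 CPM in CU1, which had the most LINC01016. How far the negative slopes rest on T2 replicate 2 was not tested. The median slope over all genes was 0.00 in both sets of libraries. In the 12 libraries 9439 of all 18946 slopes were positive, and 388 genes had a negative slope at an unadjusted p under 0.05. In the 8 libraries 9431 of all 18602 slopes were positive, and 452 genes had a negative slope at that threshold. In the 8 libraries other lists had more low p-values than the interferon genes. Cytosolic ribosomal proteins had a median slope of −0.17 with 77 of 78 below 0 and 41 at an unadjusted p under 0.05, and nuclear-encoded respiratory chain genes had −0.19 with 58 of 60 below 0 and 27 at an unadjusted p under 0.05. In the 12 libraries both lists had a median slope of −0.02 and no member at an unadjusted p under 0.05.

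PSD3 had the lowest p of the slopes over 12 libraries, 0.17 ± 0.04 log2 units for each doubling (SE; unadjusted p = 7.77e-05, adjusted p = 0.628, edgeR), and 0.19 ± 0.10 in the 8 libraries outside the pair. ACO1, an iron-sensing aconitase, and CARS1-AS1 followed among positive slopes. In the 8 libraries outside the pair their slopes were 0.02 ± 0.10 and 0.70 ± 0.29 (SE). Among negative slopes NEAT1, the RNA scaffold of paraspeckles, TLR3 and the pseudogene STAG3L5P had the lowest p. Outside the pair the slopes of these 3 were 0.01 ± 0.08, −0.23 ± 0.36 and −0.41 ± 0.29 (SE). For ACO1 and NEAT1 the slope was thus near 0 without the pair. NEAT1 had 295 and 167 CPM in CU2 and 215 and 150 CPM in CU1ENU, so the groups overlapped, and its log2 fold change was 0.31 ± 0.09 (SE, adjusted p = 0.999, edgeR). In the 8 libraries the leading genes were MTSS1, SMURF1 and BAZ2B-AS1 among positive slopes and RPS12, FXYD5 and PPIAP22 among negative ones, and of these 6 only FXYD5, a regulator of the sodium pump, had an unadjusted p under 0.05 between CU2 and CU1ENU (0.0452).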

How the data were processed

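RNA from 16 HEK293 libraries, 2 for each of 8 groups, was counted by gene. The authors deposited whole-number read counts with no normalization. Per the file headers they were made with featureCounts 2.0.1, paired and with strand option 2, over exons of Ensembl release 101. Per the submitters' processing notes HISAT2, DESeq2 and build GRCh38.p13 were also used, with versions not given in the sources used here. Per the labels' protocols, RNA integrity numbers were above 9. Of 60671 identifiers 60401 matched the gene name table. Groups and replicate numbers came from the sample titles.

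Genes were tested with edgeR 4.0.16 in R 4.3.3 (quasi-likelihood, robust), after filterByExpr (minimum count 10, minimum total 15) and TMM scaling, in a model of 8 group means and replicate number over all 16 libraries. A call is a Benjamini-Hochberg adjusted p under 0.05 over all genes tested. LINC01016 and ENSG00000233183 carry no test between CU2 and CU1ENU. CPM of this pair of genes and the summed CPM of gene lists are by deposited total. CPM of other single genes is TMM-scaled, and differences within a replicate number are of log2 CPM with a prior count of 1. The SE is the absolute log2 fold change over the root of the F statistic. Steps were tested on simulated data. Members and the 31 gene lists were chosen with earlier results of these data known. Named genes are up to 12 a direction of lowest unadjusted p with a mean log2 CPM of at least 1 and non-overlapping groups, the lowest p member of each list with at least 5 tested, and 3 a direction for each slope. Some of the genes that lead a list are not described.

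Deviations from the group means correlated between libraries of equal number in each of 28 group pairs (lowest r 0.143, highest 0.414, CU2 with CU1ENU 0.192). The numbers were therefore taken to pair the libraries, although the labels do not explain them. Replicates differed beyond sampling noise (chi-square per degree of freedom 6.21 to 17.0). Alternatives were another scaling, other filters, DESeq2 1.42.0, other sets of libraries, no block, and each library left out.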

Additional observations from a re-analysis of the deposited data

How the results depend on the processing

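Without the replicate block edgeR called 0 genes in each of the 5 comparisons and slopes, as with it. DESeq2 size factors, a mean of at least 1 CPM, scaling without the locus, DESeq2 itself and the 14 transfected libraries also gave 0 wherever they were run. Without the low-count filter 5 genes were called for CU2 over CU1ENU (CSF1, UBA7, TDRD7, NEAT1 and OGFR, named after their values were seen), 2 for CU2 over empty vector, 15 for the slope over 12 libraries and 8 for the slope over 8. With the 4 libraries of the pair alone and the block, 56 were called for CU2 over CU1ENU. Leaving out each library in turn gave 0 to 1 for CU2 over CU1ENU, for CU1ENU over empty vector and for either slope, and 0 for CU2 over empty vector. The 1 gene of the first 2 of these was the ribosomal protein pseudogene RPL18AP3, without CU1ENU replicate 1. For the slopes it was NEAT1 without T2 replicate 1, WDR38 without T2 replicate 2 and MT-ND1 without CU1 replicate 1. The cause was not tested.

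The median of the interferon-stimulated genes stayed positive, between 0.75 and 1.80 over all alternatives and between 0.84 and 1.69 with a library left out. Of 1389 recomputed values of named genes 1382 kept direction and side of the threshold, and 4 reversed: BAZ2B-AS1 ranged from −0.88 without CU2 replicate 2 to 0.10 without CU2 replicate 1, CDT1 from −0.049 without CU2 replicate 2 to 0.25 without CU2 replicate 1, SMURF1 from −0.14 without CU2 replicate 1 to 0.060 without CU2 replicate 2, and RPS12 from −0.0074 without CU1ENU replicate 1 to 0.14 without CU1ENU replicate 2. NEAT1 (adjusted p = 0.0423, edgeR) and TLR3 (0.0383) passed in the 4 libraries alone, and NEAT1 without the filter (0.0227). Of 804 recomputed list medians 38 moved beyond the spread of the replicates, 12 of those with a change of sign, and 53 changed sign in all.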
